A study of Mus musculus with 11 samples.

Results

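The 9 hedgehog pathway genes described here were Shh, Cdon, Boc, Gas1, Ptch1, Hhip, Smo, Gli1 and Gli2, chosen by symbol as a fixed list of pathway components out of 46078 gene identifiers counted in each library. All 9 symbols were found among the counted identifiers. They were read in 11 poly(A) mRNA libraries of CD-1 mouse embryonic forebrain. Each value is a read count per gene, given here as CPM, the count scaled to a common library size after TMM scaling, which corrects for differences in library composition.

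The libraries formed 5 groups. For the gain of L3mbtl3, wild-type embryos received the plasmid pCIG2 carrying L3mbtl3 by in utero electroporation of the dorsal telencephalon at E12.5, and GFP-positive brain cells were sorted at E15.5 (3 libraries). Their controls were GFP-positive cells from wild-type embryos electroporated with pCIG2 alone over the same days (3 libraries). Both of these groups were therefore electroporated, dissociated and sorted, and the plasmid, whose promoter is active in most cell types, reaches only cells lining the ventricle at the time of electroporation and their descendants. The other libraries came from dissected E12.5 dorsal telencephalon that was neither electroporated nor sorted, with 2 libraries labelled L3mbtl3 -/- (KO) and 3 controls, made up of 2 L3mbtl3 +/- (het) and 1 wild-type library. Whether each library stands for its own embryo is not stated in the labels, and the spread behind the p-values may therefore be partly technical.

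In hedgehog signalling, the secreted ligand Shh is bound at the cell surface by the receptor Ptch1 together with the co-receptors Cdon, Boc and Gas1. Without ligand, Ptch1 holds the membrane protein Smo inactive. Ligand binding releases Smo, which then acts at the primary cilium on the zinc finger transcription factors of the Gli family. Gli1, Ptch1 and Hhip are also transcriptional targets of the pathway, and Ptch1 and Hhip limit the ligand that induces them. In the embryonic telencephalon Shh is made mainly in ventral territory, where it specifies ventral progenitors, while the dorsal wall that forms the neocortex makes little of it.

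RefSeq promoter windows on GRCm38.p6, the build of the count tables, were found for 6 of the 9 genes (Gli2, Smo, Hhip, Cdon, Gas1 and Ptch1), and the 250 bases before each annotated start were searched on both strands. The start lies 30948 bases inside the counted gene for Cdon and 7863 bases inside it for Ptch1, so those windows may belong to other transcripts. The Gli binding consensus GACCACCCA was present in 0 of the 6 windows and in 0.225% of all 32851 windows. Its core ACCACCC, which lies within the consensus, was present in 1 of the 6 and in 3.92% of all windows. The Gli2 window is shown because it holds that core, and the Ptch1 window because Ptch1 is a known Gli target; a match is a string of letters and not a binding site. Gli2 is given for the minus strand of chr1:119053620-119053869, where the capitals mark the core, read as its reverse complement GGGTGGT and starting 205 bases before the annotated start. Ptch1 is given for the minus strand of chr13:63565736-63565985, and it holds no match to mark in capitals.
Gli2: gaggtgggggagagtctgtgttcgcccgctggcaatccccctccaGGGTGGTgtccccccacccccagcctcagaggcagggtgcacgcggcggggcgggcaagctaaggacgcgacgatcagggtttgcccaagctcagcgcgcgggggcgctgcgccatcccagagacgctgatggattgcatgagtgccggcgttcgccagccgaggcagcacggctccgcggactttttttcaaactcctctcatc
Ptch1: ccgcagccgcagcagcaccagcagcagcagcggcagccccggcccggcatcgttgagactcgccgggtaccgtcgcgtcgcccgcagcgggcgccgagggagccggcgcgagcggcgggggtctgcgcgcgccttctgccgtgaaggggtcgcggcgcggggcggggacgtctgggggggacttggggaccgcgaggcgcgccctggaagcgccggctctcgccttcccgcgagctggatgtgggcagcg

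Library totals ran from 16527551 counts in het replicate 2 to 26658718 in het replicate 1, and from 18266535 to 20895655 among the sorted cells. All 10 cortical markers, among them Emx1 and Tbr1, had counts in every library. L3mbtl3 itself had 1520, 1260 and 898 CPM in the gain libraries, against 54, 50.3 and 60 CPM in the GFP controls. In the tissue it had 67.2 and 70.5 CPM in the libraries labelled KO, against 55.8 and 58 CPM in the hets and 58.3 CPM in the wild type. L3mbtl3 was thus not lower in the libraries labelled KO, where edgeR's quasi-likelihood test gave a log2 fold change of 0.27 (SE 0.0539, adjusted p = 0.0128), and these libraries are named by their label throughout. By Xist and Y-linked counts, gain replicates 1 and 3 and KO replicate 2 were female and all other libraries male.

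The 3 GFP control libraries differed widely among themselves. The summed level of 10 apical progenitor genes (Sox2, Nes, Vim and others) was 1810, 1350 and 639 CPM in GFP controls 1, 2 and 3, and that of 14 ventral telencephalon and GABAergic genes was 955, 307 and 16.4 CPM. In the gain libraries the same sums were 1170, 1110 and 1060 CPM for apical progenitor genes, and 245, 258 and 15.1 CPM for ventral genes. GFP control 1 was thus the highest and GFP control 3 the lowest of the 6 sorted libraries in progenitor genes. In bulk RNA, fewer cells of a type and less RNA per cell cannot be told apart.

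**Figure D1:**
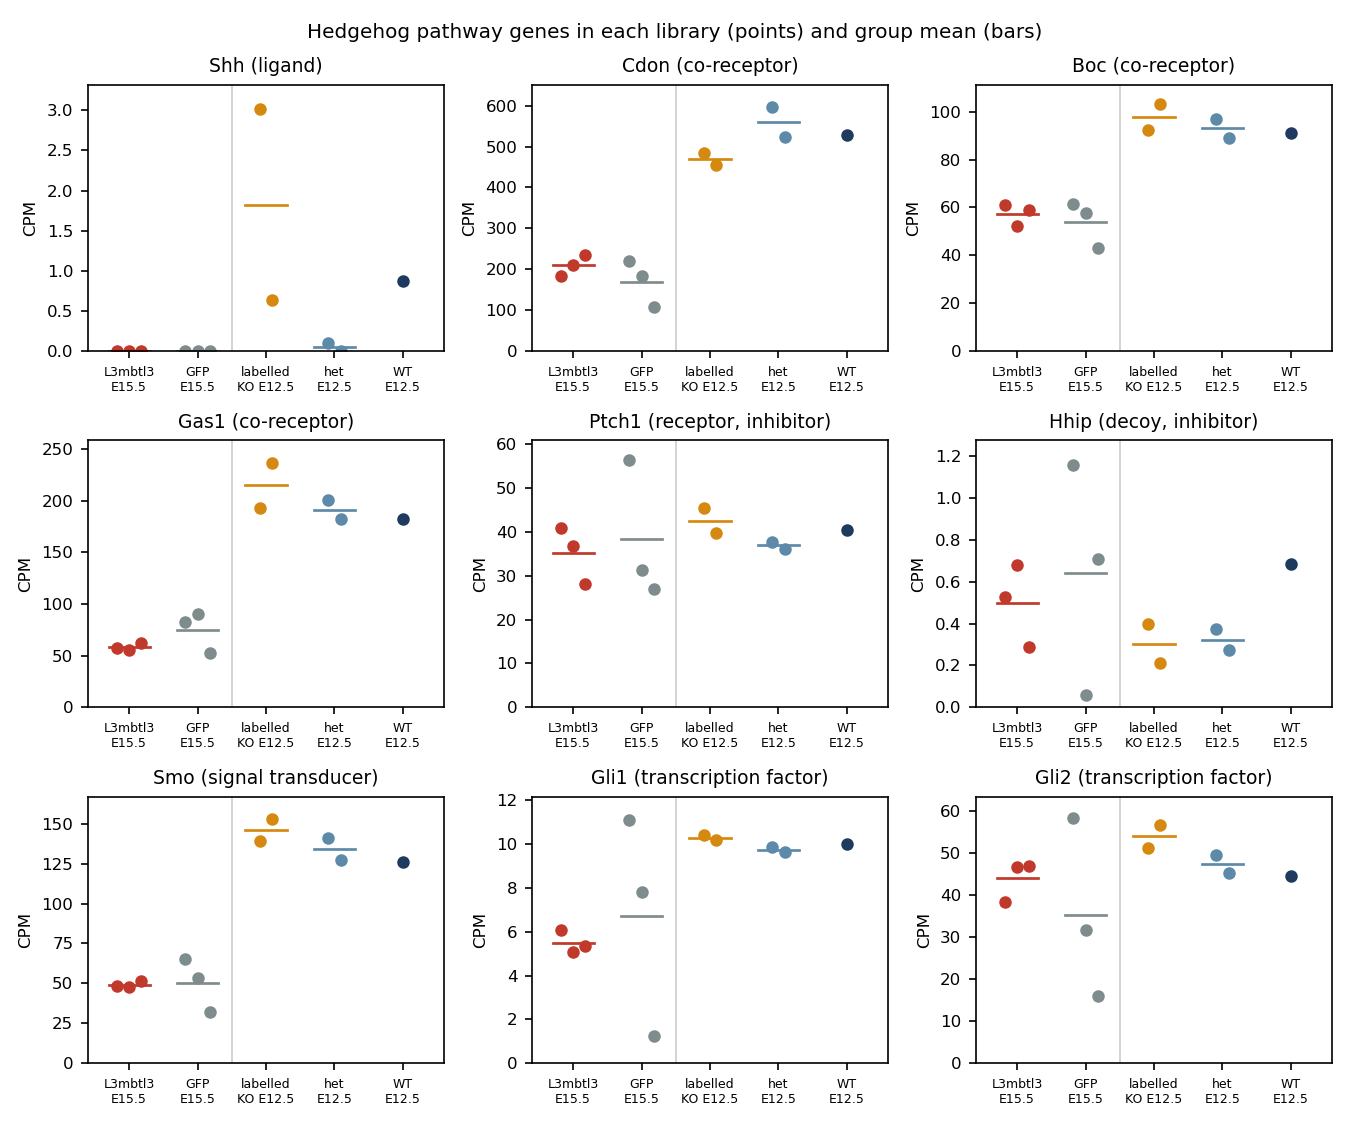
CPM of each of the 9 genes (vertical axes, each with its own scale from 0) in the 11 libraries, by group along the horizontal axis, with 1 point per library and a bar at the group mean. Shh was at 0 CPM in all 6 sorted libraries and reached 3.01 CPM in 1 tissue library labelled KO, while Cdon, Boc, Gas1 and Smo were lower in every sorted library than in any tissue library.

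The levels of the genes were compared per kilobase of summed exon length. By their means, the co-receptors and Smo in every group stood above the Gli genes and Ptch1, and Hhip and Shh were lowest. In the gain libraries the order was Cdon (27.2 ± 3.37 CPM per kb), Gas1 (19.7 ± 1.08), Boc (12.9 ± 1.01), Smo (8.75 ± 0.327), Gli2 (6.4 ± 0.72), Ptch1 (4.04 ± 0.737), Gli1 (1.5 ± 0.14), Hhip (0.102 ± 0.0403) and Shh at 0 (SD, n = 3), with no overlap between neighbours in the order. In the GFP controls Gas1 (25.4 ± 6.62 CPM per kb) and Cdon (22 ± 7.47) overlapped, as did each neighbouring pair along the run Boc (12.1 ± 2.18), Smo (8.98 ± 2.99), Gli2 (5.13 ± 3.13) and Ptch1 (4.38 ± 1.82), while Gli1 (1.84 ± 1.37) and Hhip (0.131 ± 0.113) stood apart below (SD, n = 3). The order in the sorted controls is thus resolved less finely than in the gain libraries.

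In the E12.5 tissue the libraries labelled KO ranked Gas1 (72.6 ± 10.4 CPM per kb) above Cdon (60.9 ± 2.8), and the controls ranked Cdon (71.2 ± 5.29) above Gas1 (63.5 ± 3.69), with no overlap within either group (SD, n = 2 and 3). Below these, both groups had Smo (25.9 ± 1.79 in the libraries labelled KO and 23.4 ± 1.48 CPM per kb in the controls), Boc (21.9 ± 1.64 and 20.7 ± 0.914), Gli2 (7.85 ± 0.563 and 6.77 ± 0.386), Ptch1 (4.86 ± 0.46 and 4.36 ± 0.253) and Gli1 (2.8 ± 0.0309 and 2.68 ± 0.049) in the same order. Shh and Hhip overlapped in the controls.

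Shh, the ligand (ENSMUSG00000002633, chromosome 5, 28456815 to 28467256, minus strand), had 0 counts in all 6 sorted libraries, which allows up to 3 counts per library or 0.151 to 0.178 CPM. This floor covers counting error only. In the E12.5 tissue it had 68 and 15 counts (3.01 and 0.637 CPM) in the libraries labelled KO, against 3 and 0 counts (0.102 and 0 CPM) in the hets and 19 counts (0.871 CPM) in the wild type. KO replicate 1 was the highest of these libraries, and KO replicate 2 lay below the wild-type control, so the groups overlapped. The log2 fold change was 2.49 (SE 1.31, edgeR adjusted p = 0.385), with 0.99 when KO replicate 1 was left out and 4.75 when the wild type was left out. At these counts a difference in Shh was not resolved.

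Some genes of the ventral telencephalon were also highest in KO replicate 1, and those named here were chosen after their values were seen. Nkx2-1, a factor of the medial ganglionic eminence, had 260 and 73 counts in the libraries labelled KO, against 78 and 40 in the hets and 157 in the wild type. Lhx8, a factor of ventral cholinergic neurons, had 39 and 1 counts in the libraries labelled KO, against 2 and 1 in the hets and 2 in the wild type. Isl1, a factor of ventral neurons, had 358 and 115 counts in the libraries labelled KO, against 104 and 32 in the hets and 112 in the wild type. Shh, Nkx2-1, Lhx8 and Isl1 were thus each highest in KO replicate 1, in CPM as in counts. Dlx2 and Gsx2, made by ventral progenitors, behaved otherwise. Dlx2 had 296 and 305 counts in the libraries labelled KO, against 174 and 180 in the hets and 140 in the wild type. Library totals differ, and in CPM Dlx2 had 13 to 13.1 in the libraries labelled KO, against 5.92 to 9.85 in the controls. The 14 ventral genes summed to 123 and 84.2 CPM in the libraries labelled KO, against 47.5 and 72.9 CPM in the hets and 61.4 CPM in the wild type. Of the 14, Gsx1 alone lacked a count in a tissue library, and did so in both hets. Of the 12 tested, 3 were called higher in the libraries labelled KO (Dlx2, Dlx5 and Gsx2) and 1 lower. Among all genes tested, 3.63% were called higher and 3.78% lower. The 1 called lower was Sst, a neuropeptide of interneurons (log2 fold change -2.17, SE 0.329, edgeR adjusted p = 0.00275). Lhx6, a factor of interneurons from the medial ganglionic eminence, stood at -0.16 (SE 0.267, edgeR adjusted p = 0.789). Het replicate 2 had the highest ventral sum of the controls and no Shh count, so the sum did not follow Shh library by library. The part of ventral tissue in the Shh counts was not tested.

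**Figure D2:**
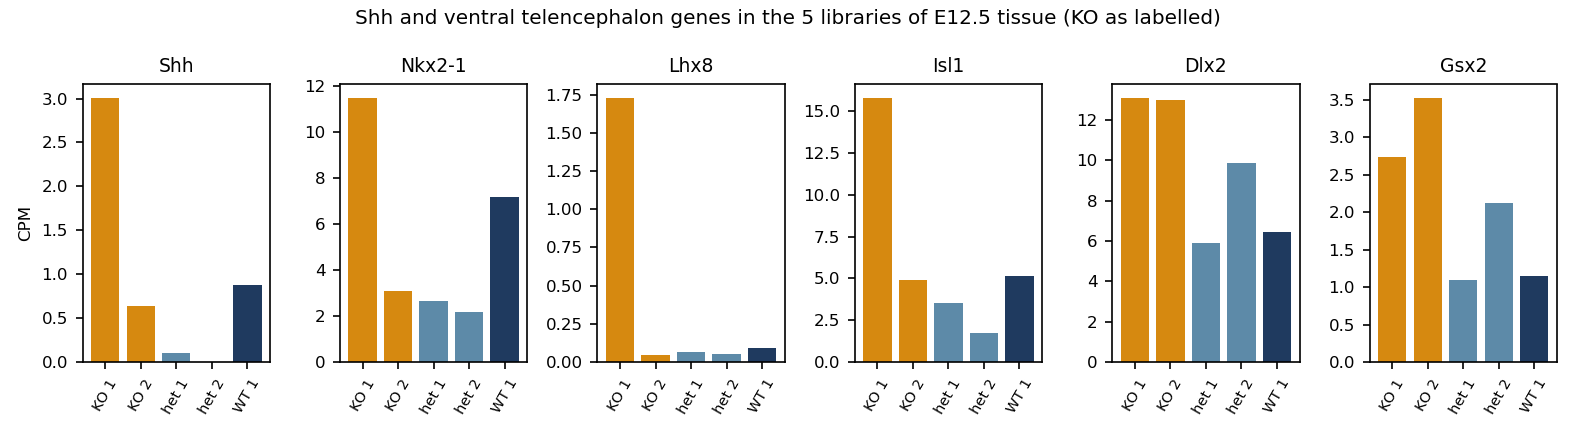
CPM of Shh and 5 ventral telencephalon genes (vertical axes from 0) in the 5 tissue libraries, with bars for the 2 libraries labelled KO, the 2 hets and the wild type. Shh, Nkx2-1, Lhx8 and Isl1 were highest in KO replicate 1, and Dlx2 and Gsx2 were high in both libraries labelled KO.

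The ventral sum was above every tissue library in 4 of the 6 sorted libraries, at 245 to 955 CPM, and none of these held a Shh count. GFP control 1, with the highest ventral sum, had 0 counts of Nkx2-1. The Shh counts and the ventral sum thus did not run together when sorted and tissue libraries are set side by side.

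Among the co-receptors, Cdon (ENSMUSG00000038119, chromosome 9, 35421128 to 35507652, plus strand) is a transmembrane protein of the immunoglobulin superfamily that binds Shh. It had 485 and 455 CPM in the libraries labelled KO, against 596 and 523 CPM in the hets and 528 CPM in the wild type. Both libraries labelled KO lay below all 3 controls, and Cdon fell, with a log2 fold change of -0.22 (SE 0.0593, edgeR adjusted p = 0.0494). It was the single member called in that comparison, 1 of the 8 tested, against 7.41% of all 16361 genes called in either direction and 3.78% called lower. The call lay close to the threshold and was lost when any 1 of the 5 libraries was left out (adjusted p from 0.0539 to 0.363), with RLE in place of TMM scaling (0.0538) and with embryo sex in the model (-0.18, adjusted p = 0.344), with adjusted p from 2.13e-05 to 1 over all alternatives. The direction was kept in 12 of 12 alternative settings.

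In the sorted cells Cdon had 184, 210 and 236 CPM in the gain libraries, against 220, 183 and 107 CPM in the GFP controls, so that the groups overlapped. The log2 fold change was 0.31 (SE 0.249, edgeR adjusted p = 0.692). Cdon was counted relative to Boc in the same library as a second reading, chosen after the values had been seen and with no test. There were 5.24 and 4.42 Cdon counts per Boc count in the libraries labelled KO, against 6.15 and 5.87 in the hets and 5.81 in the wild type. The gain libraries had 3.01, 4 and 4 Cdon counts per Boc count, against 3.58, 3.17 and 2.48 in the GFP controls. The ratio was lower in both libraries labelled KO than in the 3 tissue controls, and the sorted groups overlapped.

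Boc (ENSMUSG00000022687, chromosome 16, 44485045 to 44558897, minus strand) is the closest relative of Cdon and also binds Shh. It had 61, 52.3 and 58.9 CPM in the gain libraries, against 61.4, 57.7 and 43 CPM in the GFP controls (log2 fold change 0.09, SE 0.15, edgeR adjusted p = 0.834). In the libraries labelled KO it had 92.5 and 103 CPM, against 96.9 and 89.1 CPM in the hets and 91 CPM in the wild type (0.08, SE 0.0566, edgeR adjusted p = 0.453). Both pairs of groups overlapped, with Boc the least variable of the co-receptors among the GFP controls.

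Gas1 (ENSMUSG00000052957, chromosome 13, 60174405 to 60177365, minus strand) encodes a membrane protein held by a lipid anchor that acts alongside Cdon and Boc. It had 57.3, 55.8 and 61.9 CPM in the gain libraries, against 82.4, 90.2 and 53.1 CPM in the GFP controls. All 3 gain libraries lay below GFP controls 1 and 2 and above GFP control 3 (log2 fold change -0.36, SE 0.189, edgeR adjusted p = 0.61). Tissue levels of Gas1 were 193 and 237 CPM in the libraries labelled KO, against 201 and 182 CPM in the hets and 182 CPM in the wild type (0.19, SE 0.0948, edgeR adjusted p = 0.318). KO replicate 2 was the highest. With KO replicate 1 left out the log2 fold change of Gas1 was 0.33, from 1 library labelled KO, a female one, against male controls. Over all alternatives the adjusted p of edgeR or DESeq2 ran from 0.000811 to 1.

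Ptch1, the receptor (ENSMUSG00000021466, chromosome 13, 63508328 to 63573598, minus strand), is raised by hedgehog signalling in most tissues and is read as an output of the pathway. It had 40.8, 36.8 and 28.2 CPM in the gain libraries, against 56.5, 31.3 and 27.1 CPM in the GFP controls (log2 fold change -0.12, SE 0.292, edgeR adjusted p = 0.895). In the libraries labelled KO it had 45.4 and 39.7 CPM, against 37.8 and 36.1 CPM in the hets and 40.5 CPM in the wild type (0.16, SE 0.073, edgeR adjusted p = 0.237). The groups overlapped in both comparisons, and the highest level was in GFP control 1.

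Hhip (ENSMUSG00000064325, chromosome 8, 79966115 to 80058006, minus strand), a membrane-tethered decoy that binds the ligand, was near the limit of counting in every library. It had 10, 13 and 5 counts in the gain libraries, against 23, 1 and 13 in the GFP controls (log2 fold change -0.38, SE 0.828, edgeR adjusted p = 0.878). In the tissue it had 9 and 5 counts in the libraries labelled KO, against 11 and 5 in the hets and 15 in the wild type, too few to pass the count filter. No difference in Hhip was detectable at this depth.

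Smo, the signal transducer (ENSMUSG00000001761, chromosome 6, 29735503 to 29761365, plus strand), was even across the gain libraries and uneven across their controls. It had 48.6, 47.8 and 51.3 CPM in the gain libraries, against 65.4, 53.7 and 32.3 CPM in the GFP controls (log2 fold change -0.03, SE 0.237, edgeR adjusted p = 0.967). Tissue levels of Smo were 139 and 153 CPM in the libraries labelled KO, against 141 and 127 CPM in the hets and 126 CPM in the wild type (0.15, SE 0.0575, edgeR adjusted p = 0.153). The tissue groups overlapped by 1 het library. With KO replicate 1 left out the log2 fold change of Smo was 0.22, from 1 female library labelled KO against male controls. Over all alternatives the adjusted p of edgeR or DESeq2 ran from 0.00997 to 1.

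Gli1 (ENSMUSG00000025407, chromosome 10, 127329889 to 127341589, minus strand), an activator whose own transcription is a standard readout of the pathway, had 6.06, 5.06 and 5.35 CPM in the gain libraries, against 11.1, 7.83 and 1.25 CPM in the GFP controls. The gain libraries lay inside the range of the controls, whose extremes were 221 counts in GFP control 1 and 23 in GFP control 3 (log2 fold change -0.29, SE 0.638, edgeR adjusted p = 0.878). Gli1 in the tissue had 10.4 and 10.2 CPM in the libraries labelled KO, against 9.86 and 9.63 CPM in the hets and 9.99 CPM in the wild type. These levels did not overlap, but their separation was small, at a log2 fold change of 0.06 (SE 0.0981, edgeR adjusted p = 0.768).

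Gli2 (ENSMUSG00000048402, chromosome 1, 118834132 to 119053619, minus strand) is the main activator that responds first to the signal. It had 38.3, 46.6 and 47 CPM in the gain libraries, against 58.3, 31.6 and 15.9 CPM in the GFP controls (log2 fold change 0.32, SE 0.412, edgeR adjusted p = 0.797). The value turned on single controls, at 0.91 without GFP control 1 and -0.03 without GFP control 3. In the libraries labelled KO it had 51.2 and 56.7 CPM, against 49.5 and 45.3 CPM in the hets and 44.6 CPM in the wild type, with no overlap (0.21, SE 0.0648, edgeR adjusted p = 0.0713). It was called higher with het replicate 1 left out (0.26, edgeR adjusted p = 0.0497). With KO replicate 1 left out the log2 fold change of Gli2 was 0.28, from 1 female library labelled KO against male controls. Over all alternatives the adjusted p of edgeR or DESeq2 ran from 0.0077 to 1.

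Set against all genes, none of the 8 members tested was called after gain of L3mbtl3, by edgeR (0 with an unadjusted p under 0.05) or by DESeq2 (0), with 0.0136% of 14698 genes called by edgeR. Their fold changes had a median of -0.07 on the log2 scale, against -0.03 for all genes tested, and the gain and GFP ranges overlapped for all 8, where 16.6% of all genes had ranges apart. Leaving out single libraries turned the direction of 6 of the 8, with fold changes over all alternatives of -0.31 to 0.29 for Ptch1, -0.27 to 0.22 for Smo, -0.78 to 0.3 for Gli1, -0.03 to 0.91 for Gli2, -0.9 to 0.37 for Hhip and -0.05 to 0.21 for Boc. Cdon and Gas1 kept their direction in 13 of 13 alternatives. In the libraries labelled KO 1 of 8 was called, also by DESeq2, and 3 of 8 (Gli1, Gli2 and Cdon) had ranges apart from the controls, against 38.6% of all genes. The median of the 8 was 0.15 there, against 0 for all genes tested. With 8 genes, these shares were not read as apart from the background.

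**Figure D3:**
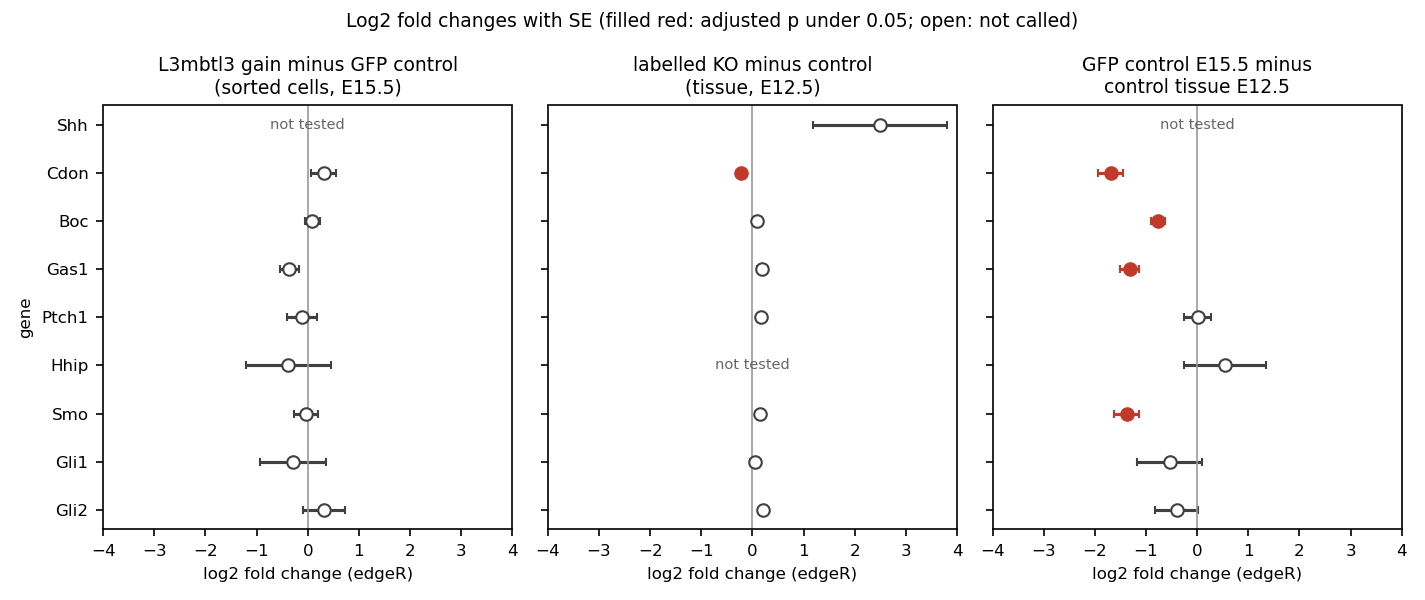
Log2 fold changes of the 9 genes (rows) with their SE (bars) for gain libraries minus GFP controls, libraries labelled KO minus E12.5 controls, and GFP controls at E15.5 minus E12.5 controls, where filled points had an edgeR adjusted p under 0.05. No gene is filled in the first panel, Cdon alone in the second (-0.22), and Cdon, Boc, Gas1 and Smo in the third (-1.69 to -0.77).

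Among called members, the fold changes between the 2 kinds of control library were the largest. Age, electroporation, dissociation and sorting all differ between the GFP controls at E15.5 and the E12.5 controls and cannot be told apart. Both sets of controls also serve the comparisons above. Cdon, Gas1, Smo and Boc fell in the GFP controls, 4 of 8 members tested, where 62.3% of 15968 genes were called, 31.1% higher and 31.3% lower.

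Cdon averaged 170 ± 57.6 CPM in the GFP controls and 549 ± 40.8 CPM in the E12.5 controls (SD, n = 3 each), a log2 fold change of -1.69 (SE 0.25, edgeR adjusted p = 0.00133). Smo averaged 50.5 ± 16.8 CPM in the GFP controls and 131 ± 8.32 CPM in the E12.5 controls (-1.38, SE 0.24, edgeR adjusted p = 0.00266). Gas1 averaged 75.2 ± 19.6 CPM in the GFP controls and 188 ± 10.9 CPM in the E12.5 controls (-1.32, SE 0.192, edgeR adjusted p = 0.00124). The co-receptor Boc was lower by less, at 54 ± 9.71 CPM in the GFP controls and 92.3 ± 4.07 CPM in the E12.5 controls (-0.77, SE 0.138, edgeR adjusted p = 0.00299). All 4 were lower in every GFP control than in any tissue control, as were 37.7% of all genes, and they were called in 12 of 12 alternative settings.

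The pathway targets among the members (Ptch1, Gli1 and Hhip) and Gli2 showed no called change between these controls. Ptch1 averaged 38.3 ± 15.9 CPM in the GFP controls and 38.1 ± 2.21 CPM in the E12.5 controls (log2 fold change 0.01, SE 0.269, edgeR adjusted p = 0.976). Gli1 averaged 6.73 ± 5.02 CPM in the GFP controls and 9.83 ± 0.18 CPM in the E12.5 controls (-0.54, SE 0.63, edgeR adjusted p = 0.482), and Gli2 averaged 35.3 ± 21.5 CPM in the GFP controls and 46.5 ± 2.65 CPM in the E12.5 controls (-0.4, SE 0.414, edgeR adjusted p = 0.434). Hhip stood at 0.55 (SE 0.805, edgeR adjusted p = 0.579). The values of Ptch1 and Gli2 turned on GFP control 1, and without it both were called lower, Ptch1 at -0.39 (edgeR adjusted p = 0.0151, against 0.0151 to 0.999 over all alternatives) and Gli2 at -0.97 (edgeR adjusted p = 0.018, against 0.018 to 0.909).

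The summed levels of progenitor and of neuronal genes also differed between these controls. The 10 apical progenitor genes summed to 1810, 1350 and 639 CPM in the GFP controls, against 2870, 2890 and 2820 CPM in the E12.5 controls. The 10 pan-neuronal genes (Dcx, Tubb3, Map2 and others) summed to 5950, 6580 and 8220 CPM in the GFP controls, against 2100, 2330 and 2260 CPM in the E12.5 controls. Single genes departed from these sums. The progenitor genes Sox2 (log2 fold change -0.4), Fabp7 (0.15) and Slc1a3 (0.07) and the neuronal gene Nefl (-0.63) were not called. Genes of meninges and mesenchyme summed to 9.66 to 62.8 CPM in the GFP controls, against 1640 to 1830 CPM in the E12.5 controls, and 2 of these 9 genes had no count in GFP control 3. The part of cell composition in the members' differences was not tested.

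As a reading against progenitor content, the members' counts were set per 1000 counts of the 10 apical progenitor genes in the same library. This ratio was chosen after the values had been seen, depends on those 10 genes, and carries no test. The summed level of those 10 genes was lower in the GFP controls, so any gene level in CPM stands higher on this scale. The share of all genes with ranges apart on this scale was not computed. Smo, lower in CPM, had 36.1 to 50.5 per 1000 in the GFP controls, against 44.1 to 49.2 in the E12.5 controls, and Gas1 had 45.5 to 83 in the GFP controls, against 63 to 70 in the E12.5 controls. Both overlapped on this scale. Boc, also lower in CPM, was higher on this scale, at 33.9 to 67.3 per 1000 in the GFP controls, against 30.9 to 33.8 in the E12.5 controls, with GFP control 1 and het replicate 1 nearly level. Cdon stayed below, at 121 to 167 per 1000 in the GFP controls, against 181 to 208 in the E12.5 controls.

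Ptch1, level in CPM, stood higher on this scale, at 32.2 ± 9.64 per 1000 in the GFP controls and 13.4 ± 0.921 in the E12.5 controls (SD, n = 3 each), with every GFP control above every E12.5 control. Gli2 likewise had 23.4 to 32.2 per 1000 in the GFP controls, against 15.7 to 17.3 in the E12.5 controls. For Ptch1 and Gli2 the other E15.5 and E12.5 groups showed the same order. The gain libraries had 26.7 to 35 for Ptch1 and 32.7 to 44.5 for Gli2. The libraries labelled KO had 13 to 15.9 for Ptch1 and 18 to 18.6 for Gli2. Gli1 overlapped, at 1.96 to 6.13 per 1000 in the GFP controls, against 3.34 to 3.54 in the E12.5 controls. The gain libraries and those labelled KO did not repeat the controls for every member. Cdon overlapped there (157 to 223 against 149 to 170). Gas1 was lower in the gain libraries (49 to 58.6 against 67.8 to 77.6), as was Smo narrowly (41.6 to 48.5 against 48.7 to 50.1). Gli1 was higher in them (4.58 to 5.19 against 3.34 to 3.64), and so was Boc, as in the controls (47.3 to 55.7 against 32.5 to 33.7). Between the sorted groups Gli2 was the member whose ranges did not overlap on this scale, at 39.8 ± 6.22 per 1000 in the gain libraries and 26.8 ± 4.73 in the GFP controls (SD, n = 3 each). The margin was narrow, from 32.2 in GFP control 1 to 32.7 in gain replicate 1. In CPM the 2 groups overlapped for Gli2. The 16.6% of all genes with ranges apart is a share in CPM, and none was computed on this scale.

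**Figure D4:**
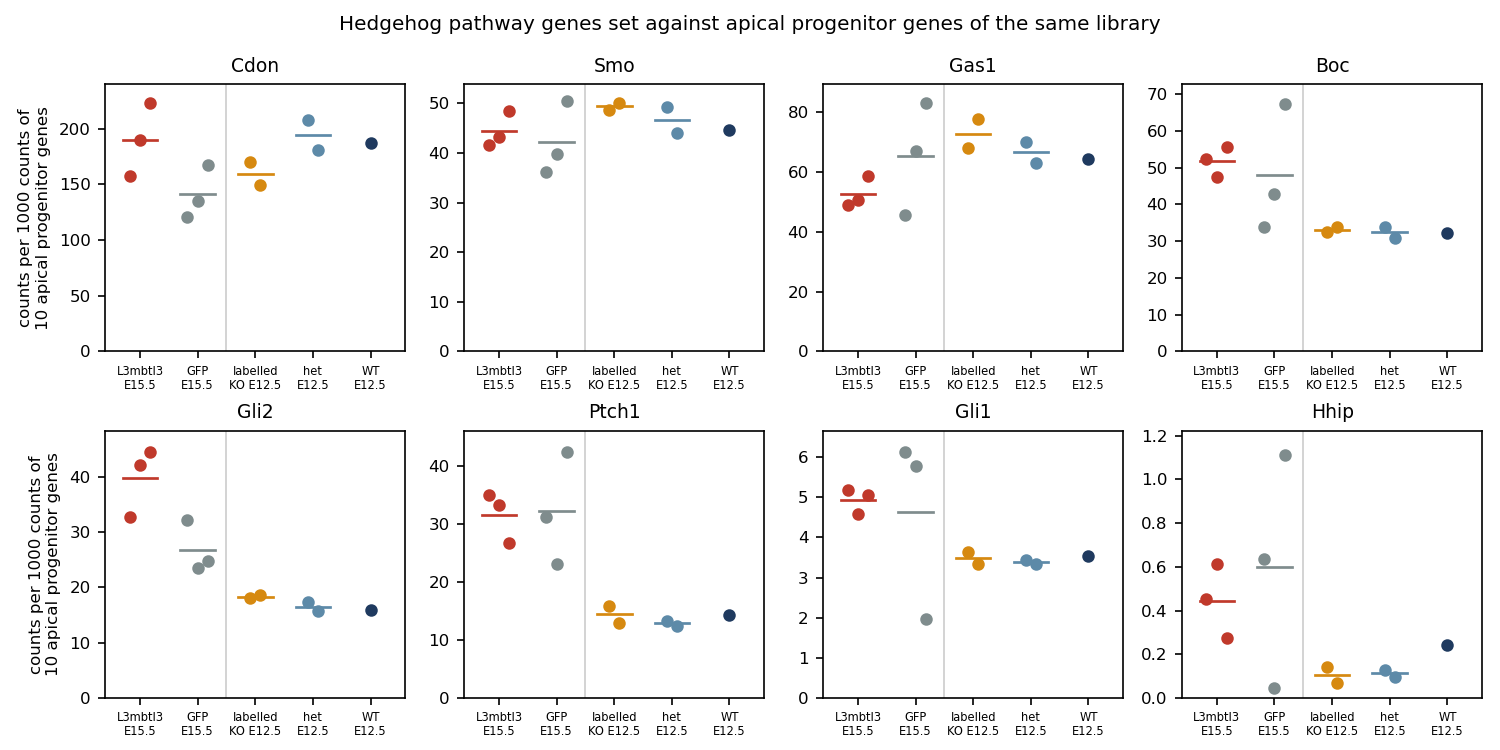
Counts of 8 of the genes per 1000 counts of 10 apical progenitor genes of the same library (vertical axes from 0), by group, with 1 point per library and a bar at the group mean. Smo and Gas1 overlapped between sorted cells and tissue on this scale, while Ptch1, Gli2 and, by a narrow margin, Boc were higher in every sorted library than in any tissue library.

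Other pathway genes were read from 4 lists. After gain of L3mbtl3 none was called by edgeR or DESeq2 in any list (0 of 6 tested for ligand production and release, 0 of 13 membrane and cilium regulators, 0 of 17 cytoplasmic Gli regulators and 0 of 9 reported targets). By edgeR 1, 1, 1 and 0 of them had an unadjusted p under 0.05, and by DESeq2 also 1, 1, 1 and 0. The list members with the smallest p were Disp2, which releases the lipid-modified ligand (log2 fold change 0.32, SE 0.131), Scube3, a secreted carrier of ligand (-0.27, SE 0.178), Lrp2, an endocytic receptor that binds Shh (-1.5, SE 0.617), Gpr161, a ciliary receptor that restrains the pathway (0.26, SE 0.112), Gsk3b (0.27, SE 0.103) and Prkaca (-0.27, SE 0.14), kinases that act on Gli proteins, and the reported targets Rab34 (-0.25, SE 0.114) and Ccnd1 (-0.57, SE 0.308), with edgeR adjusted p from 0.559 to 0.647.

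In the libraries labelled KO, 2 of 7 ligand release genes, 1 of 13 membrane and cilium regulators and 3 of 13 reported targets rose and 0 fell, where 3.63% of all genes were called higher. The medians of these lists were 0.34, 0.08 and 0.18 on the log2 scale, against 0 for all genes. Markers of other cells differed in the same libraries. Genes of the cortical hem and choroid plexus summed to 404 and 445 CPM in the libraries labelled KO, against 660 and 747 CPM in the hets and 744 CPM in the wild type, with 6 of 12 called lower (Ttr at -1.6 and Kcne2 at -1.98) and 2 higher. Those called lower were the choroid plexus genes Ttr, Kcne2, Htr2c, Aqp1, Clic6 and Folr1. The 2 called higher were the hem genes Wnt8b (0.61) and Rspo2 (0.41), and the hem genes Wnt3a, Wnt2b, Lmx1a and Rspo1 were not called. Of 10 pan-neuronal genes 5 were called lower, and the part of these markers in the pathway genes' changes was not tested. Scube3 had 66 and 63.1 CPM in the libraries labelled KO, against 41.8 and 46.5 CPM in the hets and 45.4 CPM in the wild type (log2 fold change 0.54, SE 0.0608, edgeR adjusted p = 0.000407). Scube1, its relative, had 49.1 and 39.9 CPM in the libraries labelled KO, against 29.9 and 34.8 CPM in the hets and 30.3 CPM in the wild type (0.5, SE 0.0986, edgeR adjusted p = 0.0194), and its call was lost without het replicate 1 (adjusted p = 0.0502) and without the wild type (0.0852), against 1.45e-11 to 0.46 over all alternatives. Lrp2 had 28.5 and 27.4 CPM in the libraries labelled KO, against 18.6 and 16.4 CPM in the hets and 15.9 CPM in the wild type (0.72, SE 0.0808, edgeR adjusted p = 0.000407). All 3, named because they were called, stood above every control in both libraries labelled KO. Of all genes tested, 38.6% had ranges apart there in either direction.

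Of the reported targets, Ccnd1, a cyclin of G1 progression, had 385 and 382 CPM in the libraries labelled KO, against 270 and 220 CPM in the hets and 234 CPM in the wild type (log2 fold change 0.67, SE 0.0786, edgeR adjusted p = 0.00356). Its call was lost without KO replicate 1 (adjusted p = 0.105), without KO replicate 2 (0.169) and with embryo sex in the model (0.155), against 5.52e-44 to 1 over all alternatives. Igfbp3, a secreted binding protein of insulin-like growth factors, had 24.9 and 26.6 CPM in the libraries labelled KO, against 16.7 and 17.5 CPM in the hets and 16.7 CPM in the wild type (0.61, SE 0.0725, edgeR adjusted p = 0.000613). Olig1, a factor of the oligodendrocyte lineage, had 2.39 and 2.46 CPM in the libraries labelled KO, against 1.12 and 0.493 CPM in the hets and 0.687 CPM in the wild type (1.59, SE 0.293, edgeR adjusted p = 0.00757). The direct targets among the 9 genes, Ptch1 and Gli1, were not called in this comparison. Nkx2-1, a ventral target, stood at 0.86 (SE 0.916, edgeR adjusted p = 0.689).

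The cytoplasmic regulators had 0 of 17 called in the libraries labelled KO by edgeR and 0 by DESeq2 (7 and 4 with an unadjusted p under 0.05), with a median of 0.01. The smallest p belonged to Stk36, a kinase-like relative of the fly gene fused (-0.23, SE 0.0634, edgeR adjusted p = 0.0505), and Numb, an adaptor that directs Itch to Gli1 (0.18, SE 0.0561, edgeR adjusted p = 0.0822). All 6 genes called in the 3 other lists lost their calls in a fit of all 11 libraries, whose shared estimate of the spread includes the uneven GFP controls.

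Between the GFP controls and the E12.5 controls the lists moved in both directions, with 2 higher and 0 lower of 6 ligand release genes, 4 higher and 3 lower of 13 membrane and cilium regulators, 9 higher and 4 lower of 17 cytoplasmic regulators and 2 higher and 7 lower of 13 reported targets. Their medians were -0.25, 0.1, 0.31 and -0.71 on the log2 scale, against -0.02 for all genes. Over all genes tested, 31.1% were called higher and 31.3% lower. With lists of this size, the shares called were not read as apart from the background. Scube1 had 214, 244 and 234 CPM in the GFP controls, against 29.9, 34.8 and 30.3 CPM in the E12.5 controls, and rose by 2.87 (SE 0.0991, edgeR adjusted p = 2.09e-05). Disp2 had 48, 49.8 and 60.1 CPM in the GFP controls, against 13.5, 15 and 16.9 CPM in the E12.5 controls, and rose by 1.81 (SE 0.14, edgeR adjusted p = 0.000102). Across the GFP controls Scube1 (231 ± 15.2 CPM) and Disp2 (52.7 ± 6.54) were more even than Gli1 (6.73 ± 5.02) or Gli2 (35.3 ± 21.5). Boc (54 ± 9.71) was not far from Disp2 (SD, n = 3). Scube2 of the same list was uneven, at 0.327 to 3.74 CPM.

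Of the membrane and cilium regulators, Gpr161 rose by 0.74 (SE 0.112, edgeR adjusted p = 0.00141). Evc and Evc2, partners of Smo at the base of the cilium, fell by 1.89 (SE 0.269, edgeR adjusted p = 0.00112) and by 1.15 (SE 0.117, edgeR adjusted p = 0.000264) on the log2 scale. Evc had 21.6, 16.6 and 9.64 CPM in the GFP controls, against 59.8, 60.5 and 58.1 CPM in the E12.5 controls. Evc and Evc2 were thus lower in the GFP controls, as was Smo. Lrp2 of the same list also fell (log2 fold change -2.9, SE 0.455, edgeR adjusted p = 0.00171). Other genes of the list rose or were not called. Iqce (0.1, SE 0.0956, edgeR adjusted p = 0.412) and Efcab7 (-0.37, SE 0.142, edgeR adjusted p = 0.055) were not called. Grk2 rose by 0.83 (SE 0.127, edgeR adjusted p = 0.00153).

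Of the cytoplasmic regulators, Prkacb, a catalytic subunit of the kinase PKA that phosphorylates Gli proteins, rose by 1.29 (SE 0.0958, edgeR adjusted p = 8.88e-05), Gsk3a rose by 1.4 (SE 0.133, edgeR adjusted p = 0.000214) and Numb fell by 1.26 (SE 0.118, edgeR adjusted p = 0.000194). Csnk1a1, a casein kinase, rose by 0.41 (SE 0.0676, edgeR adjusted p = 0.00201), a call that was lost with library totals only (0.14, edgeR adjusted p = 0.098, against 5.64e-08 to 0.098 over all alternatives). Of the reported targets, Rab34, a small GTPase of the cilium, rose by 1.23 (SE 0.0906, edgeR adjusted p = 8.4e-05), Mycn, a growth-promoting factor, rose by 1.23 (SE 0.186, edgeR adjusted p = 0.00148), Foxf2, a mesenchymal factor, fell by 3.37 (SE 0.378, edgeR adjusted p = 0.000413), and Sfrp1, a secreted Wnt inhibitor, fell by 0.71 (SE 0.114, edgeR adjusted p = 0.00191). Foxf2 had 19, 7 and 26 counts in the GFP controls, against 269, 179 and 225 in the E12.5 controls, alongside the meningeal and mesenchymal genes given above. Nkx6-1, called lower and left without a fold, had 0 counts in all GFP controls, against 28, 42 and 27 counts in the E12.5 controls.

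**Figure D5:**
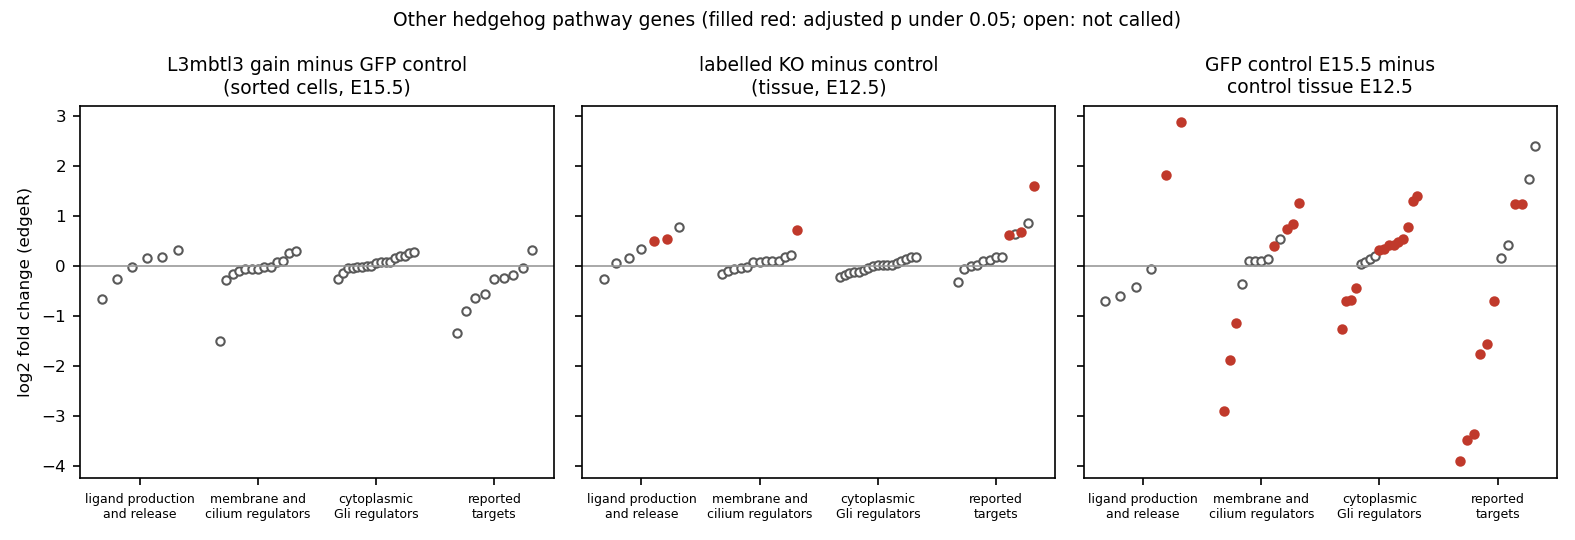
Log2 fold changes (vertical axis) of the tested genes of 4 pathway lists, ordered by size within each list, in the 3 comparisons, where filled points had an edgeR adjusted p under 0.05. No point is filled for the gain libraries, 6 are filled for the libraries labelled KO, all above 0, and Nkx6-1, with 0 counts in all GFP controls, is left out of the third panel.

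Genes whose log2 CPM followed each member most closely were named by Pearson correlation over the 11 libraries, which are of 2 kinds, sorted cells and tissue. These values are a description with no test. Smo was closest to Cks1b (r = 0.998) and Ajuba (0.998), Cdon to Sec23b (0.994) and Cnot1 (0.993), Boc to Nepro (0.993) and Rfx2 (0.991), and Gas1 to Peg12 (0.996) and Igfbp5 (0.995). Gli1 was closest to Egfr (0.976) and A2m (0.976), Gli2 to Phka2 (0.98) and Ccdc82 (0.966), and Ptch1 to Meg3 (0.958) and Lmo3 (0.935). For the sparsely counted genes the closest were weaker, with Zfp51 (0.866) and Hscb (0.865) for Shh and Sfxn2 (0.805) and Zfp40 (0.783) for Hhip.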

How the data were processed

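Poly(A) mRNA from 11 libraries was sequenced as single-end reads of 75 bases from stranded libraries, per the labels' protocols. Values deposited by the authors are whole read counts for each gene on GRCm38, made with featureCounts 2.0.1 in reversely stranded mode (-s 2), per the file headers. HISAT2 2.2.1, SAMtools 1.9, CASAVA 1.9, FastQC 0.11.8 and deepTools 3.3.0 are named in the submitters' processing notes. The handling of reads that map to several places is not given in the sources used here. Of 46078 identifiers, 45143 (97.971%) had a symbol in the name table.

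Counts were tested as deposited with edgeR 4.0.16 in R 4.3.3 (robust quasi-likelihood, TMM, filterByExpr with a count minimum of 10), two-sided, with Benjamini-Hochberg adjustment over all genes tested. The threshold for a call was an adjusted p under 0.05, and only called genes are written as rising or falling. The SE is the absolute log2 fold change divided by the square root of the F statistic. CPM values carry TMM factors computed over all 11 libraries. DESeq2 1.42.0, other scalings, no count filter, a replicate block, a joint fit, embryo sex and leaving out each library were alternatives. The code was tested on simulated data.

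Groups came from the sample titles, and het and wild type together formed the E12.5 controls, as the series counts them. E14.5 libraries were not analysed here. The members and lists were chosen with earlier results of these data known. All 9 members were named, with up to 4 called genes of each pathway list by smallest p, or, with none called, the 2 with the smallest p. A result under this rule is not reported here, although the counts include it. For the closest genes, the mean log2 CPM had to reach 1, with a prior count of 2. Evc beside Smo, Iqce, Efcab7, Grk2 and Lrp2 beside Evc, Nkx2-1 at E12.5 and Nkx6-1 were added after their values were seen. So were all ratios within a library.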

Additional observations from a re-analysis of the deposited data

How the results depend on the processing

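After gain of L3mbtl3 no member was called in any of the 13 alternatives, among them those that left out each library (0 to 0 members called). Over all genes the count of 2 moved to 119 with DESeq2 and 1 with embryo sex in the model, and ran from 0 to 415 when single libraries were left out; at 0, without GFP control 2, 693 genes had an unadjusted p under 0.05, and 415 were called without GFP control 1. For the libraries labelled KO, the 1213 called genes moved to 2266 with no count filter, 6 in the joint fit and 654 with embryo sex, and ran from 603 to 1785 without single libraries. The 1 called member there, Cdon, moved to 0 members with RLE factors, 0 in the joint fit and 0 with embryo sex. With no count filter 4 members were called (Gli2, Gas1, Smo and Cdon), and the cause was not tested. The fits without a KO replicate rest on 1 library labelled KO. Between GFP and E12.5 controls the all-gene count ran from 7793 to 11333 and the members called from 4 to 6 without single libraries, and Ptch1 (0.01) ran from -0.39 without GFP control 1, where it was called, to 0.21 without GFP control 3; with 0.23 under the replicate block, its sign differed from the main value in 6 of 12 alternatives. Hhip (0.55), never called, was at -0.18 without GFP control 1. With library totals only, the median of all genes there was -0.3 on the log2 scale, against -0.02, and 35.5% of called genes were higher, against 49.9%. Embryo sex could not enter that comparison, since all its libraries were male.

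The labels do not say that the replicate numbers pair the libraries, and the data left this unresolved: deviations of same-numbered gain and GFP libraries correlated at 0.179, 0.005 and 0.297, and those of KO and het libraries at -0.032. With the replicate number as a block, 3 genes and 0 members were called after gain, 948 genes and 1 member for the libraries labelled KO, and 10529 genes and 4 members between the controls. Shh and Hhip stayed below the count filter in 2 and 1 of the 3 comparisons.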
